A study of Mus musculus with 9 samples.

Results

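The proliferation genes are 42 genes of the cell cycle, 18 whose products act around the start and course of S phase and 24 whose products act in G2 and mitosis. The members are listed by gene symbol for their roles in the cell cycle, and the rule sets no threshold on their values. All 42 were found among the 55357 gene identifiers of the deposited table, and all 42 passed the filter on low counts that left 15046 genes. They were measured by poly(A) RNA-seq in 3 keratinocyte populations from the back skin of TNC-CREER; tdTomato mice on a C57BL/6 background at postnatal day 60. All of these mice carried the 2 alleles and were given tamoxifen at 100 µg per g of body weight on postnatal days 51 and 52. The reporter thus marks cells in which the Tenascin-C gene (Tnc) drove the inducible Cre around those days, and their descendants.

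The populations were sorted by flow cytometry. Touchdome cells were positive for EPCAM, SCA1, integrin α6 and tdTomato. HF (hair follicle) cells were positive for EPCAM and integrin α6 and negative for SCA1 and tdTomato. IFE (interfollicular epidermis) cells were positive for EPCAM, SCA1 and integrin α6 and negative for tdTomato. Each population had 3 libraries, which the labels do not tie to separate animals. The p-values therefore reflect variation among these libraries, part of which may be technical.

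Library totals (expected counts) ran from 10735431 to 15477297 in Touchdome, 9295059 to 21358479 in HF and 14647371 to 28249763 in IFE libraries, and no member was at 0 in any library. The genes of the sort markers checked the labels: Tnc stood at 257 ± 48.9 CPM in Touchdome cells, 50.5 ± 8.71 CPM in HF libraries and 4.79 ± 3.22 CPM in IFE (SD, n = 3 each). For the SCA1 gene Ly6a the levels were 125 ± 18.8 CPM in Touchdome, 1.08 ± 0.753 CPM in HF cells and 153 ± 36.1 CPM in IFE. Epcam stood at 150.3 ± 55.3 CPM in Touchdome, 228 ± 27.5 CPM in HF libraries and 122 ± 9.57 CPM in IFE. The integrin α6 gene Itga6 had 886 ± 93.2 CPM in Touchdome, 422 ± 25.4 CPM in HF cells and 1134 ± 249 CPM in IFE. CPM are counts scaled to a common library size with TMM factors. On the first principal component of all tested genes, with 59.2% of the variance, Touchdome replicate 3 lay at -2.86, apart from Touchdome replicates 1 and 2 at -37.6 and -40.7. HF libraries lay at 89.2 to 98.7 and IFE libraries at -75.4 to -57.5 on that component. On the second component, with 9.77% of the variance, IFE replicate 2 lay at -55.2, apart from IFE replicates 1 and 3 at -12.8 and -6.22. On a component computed from the members alone, with 92.8% of their variance, Touchdome replicate 3 at -2.48 lay beside Touchdome replicate 2 at -2.33, with replicate 1 at -4.18.

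In the epidermis, keratinocytes of the basal layer divide, and cells that leave the basal layer to differentiate stop dividing. As a cell commits to division, E2F transcription factors switch on genes for DNA replication, and in G2 a second set of genes for mitosis is switched on with B-MYB and FOXM1. The promoters of the mitosis genes are known for a short element called CHR, often with CCAAT boxes bound by NF-Y. The promoters of replication genes are known for E2F sites.

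Promoter letters were read from RefSeq (GRCm38.p6, which is not the build the submitters name), from 250 bases before to 50 bases after each start. The table matched 33 of the 42 members, with 35 promoters, 17 of S phase and 18 of mitosis genes, since Mcm7 and Uhrf1 had 2 each. Ccne2, Mcm4, Gins2, Ccna2, Cdc25c, Aurkb, Kif20a, Tpx2 and Foxm1 had no entry. The motifs searched on both strands were TTTGAA and TTCGAA for CHR, CCAAT, and TTTCCCGC, TTTCGCGC, TTTGGCGC and TTTGCCGC for E2F. The following 3 promoters belong to the mitosis genes with a CHR match and the smallest p in Touchdome against HF, and capitals mark CHR and CCAAT matches on either strand. They are chr9:70421505-70421804 on the minus strand for Ccnb2 (cyclin B2), chr2:118597961-118598260 on the plus strand for Bub1b (a spindle checkpoint kinase) and chr4:118437294-118437593 on the minus strand for Cdc20 (an activator of the anaphase promoting complex).
Ccnb2: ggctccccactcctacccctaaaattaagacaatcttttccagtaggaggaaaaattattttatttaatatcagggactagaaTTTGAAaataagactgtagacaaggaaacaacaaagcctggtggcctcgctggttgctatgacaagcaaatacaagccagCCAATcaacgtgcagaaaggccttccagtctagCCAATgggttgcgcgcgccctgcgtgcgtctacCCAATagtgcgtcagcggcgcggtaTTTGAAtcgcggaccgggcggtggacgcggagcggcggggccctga
Bub1b: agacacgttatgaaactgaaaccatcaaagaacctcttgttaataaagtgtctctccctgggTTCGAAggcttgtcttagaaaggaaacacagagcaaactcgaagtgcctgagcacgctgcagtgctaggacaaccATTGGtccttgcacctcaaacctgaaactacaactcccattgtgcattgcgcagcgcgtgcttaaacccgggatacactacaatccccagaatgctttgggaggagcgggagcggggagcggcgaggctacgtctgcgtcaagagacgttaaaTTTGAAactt
Cdc20: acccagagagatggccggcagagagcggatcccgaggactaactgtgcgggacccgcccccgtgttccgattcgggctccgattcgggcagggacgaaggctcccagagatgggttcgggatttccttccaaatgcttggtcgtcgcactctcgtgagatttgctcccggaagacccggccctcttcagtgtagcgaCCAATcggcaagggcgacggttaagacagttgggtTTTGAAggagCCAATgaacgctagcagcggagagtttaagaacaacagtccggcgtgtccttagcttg

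The Ccnb2 promoter held 3 CCAAT boxes, at 87, 54 and 21 bases before the start, followed by TTTGAA at base 5 after it, with another TTTGAA at 167 bases before. In Cdc20 a CCAAT box stood at 53 bases before the start and TTTGAA at 18 bases before, with a further CCAAT at 8 bases before. Bub1b had TTCGAA at 188 bases before the start, ATTGG at 113 bases before and TTTGAA at base 41 after it.

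The S phase genes with an E2F match and the smallest p in the same comparison were Uhrf1 (a cofactor of maintenance DNA methylation), Mcm7 and Mcm3 (subunits of the replicative helicase). Uhrf1 and Mcm7 each had another promoter, which held no E2F match and is not printed. In the promoters printed here, capitals mark E2F, CHR and CCAAT matches. These promoters lie at chr17:56304063-56304362 on the plus strand, chr5:138171834-138172133 on the minus strand and chr1:20820263-20820562 on the minus strand.
Uhrf1: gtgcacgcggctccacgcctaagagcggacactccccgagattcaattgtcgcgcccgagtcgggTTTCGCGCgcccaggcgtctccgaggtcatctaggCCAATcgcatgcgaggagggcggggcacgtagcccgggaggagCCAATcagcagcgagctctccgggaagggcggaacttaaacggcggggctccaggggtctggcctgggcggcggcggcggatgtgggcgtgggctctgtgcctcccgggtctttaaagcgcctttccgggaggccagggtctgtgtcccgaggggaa
Mcm7: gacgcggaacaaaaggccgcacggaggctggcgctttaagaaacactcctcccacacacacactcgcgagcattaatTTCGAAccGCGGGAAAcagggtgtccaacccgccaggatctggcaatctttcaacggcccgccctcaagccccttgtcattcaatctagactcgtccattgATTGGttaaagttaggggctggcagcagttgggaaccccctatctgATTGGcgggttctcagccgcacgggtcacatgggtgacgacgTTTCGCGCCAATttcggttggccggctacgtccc
Mcm3: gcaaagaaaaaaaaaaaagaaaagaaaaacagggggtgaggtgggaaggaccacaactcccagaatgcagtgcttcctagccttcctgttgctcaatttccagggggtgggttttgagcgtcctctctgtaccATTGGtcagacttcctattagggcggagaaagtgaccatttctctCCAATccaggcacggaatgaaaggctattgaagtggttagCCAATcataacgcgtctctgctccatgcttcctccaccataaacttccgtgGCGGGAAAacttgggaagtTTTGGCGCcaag

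In Uhrf1 the E2F match TTTCGCGC began 185 bases before the start. Mcm7 held E2F matches at 165 bases before and at base 17 after the start, and the last base of the second is also the first base of a CCAAT match. Mcm3 held GCGGGAAA at base 20 and TTTGGCGC at base 39 after the start.

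Over the whole table of 32851 promoters, 19.2% held a CHR match, 37.4% a CCAAT match and 2.26% an E2F match. Of the mitosis promoters 77.8% (14 of 18) held CHR, against 11.8% (2 of 17) of the S phase promoters. CCAAT was found in 88.9% of mitosis and 64.7% of S phase promoters. Both motifs together were found in 77.8% of mitosis promoters, 11.8% of S phase promoters and 7.52% of all promoters. E2F went the other way, with 5.56% (Cdk1 alone, of 18) of mitosis and 41.2% (7 of 17) of S phase promoters. These are matches of letters and not sites of binding. The mitosis genes with no CHR match in this window were Birc5, Ccnb1, Cenpe and Nusap1.

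**Figure D1:**
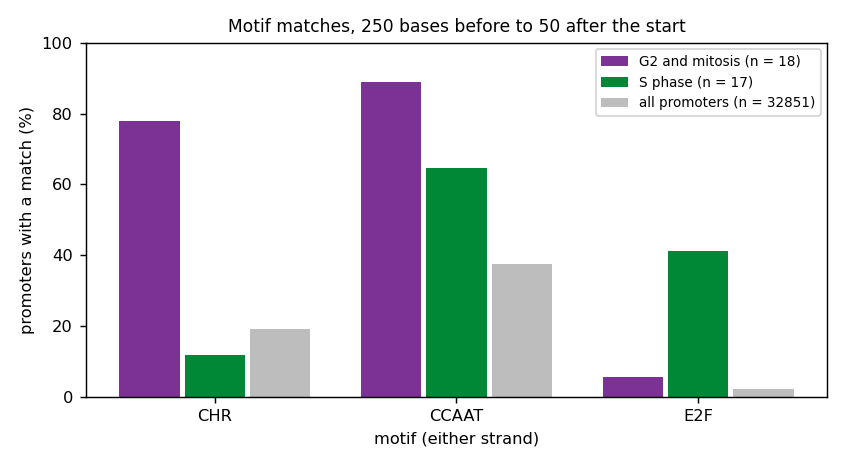
Share of promoters (%, bars) that hold a CHR, CCAAT or E2F match on either strand, for 18 mitosis promoters, 17 S phase promoters and all 32851 promoters of the RefSeq table. CHR stands at 77.8% in mitosis promoters and E2F at 41.2% in S phase promoters, against 19.2% and 2.26% of all promoters.

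The summed level of the 24 mitosis genes was 2413, 1720 and 1884 CPM in the Touchdome libraries, 666, 619 and 569 CPM in the HF libraries and 2128, 1655 and 1927 CPM in the IFE libraries. Touchdome and IFE overlapped, and every HF library lay below every library of the other groups. The means were 2006 ± 362 CPM in Touchdome, 618 ± 48.5 CPM in HF libraries and 1903 ± 237 CPM in IFE (SD, n = 3 each). The summed level of the 18 S phase genes was 943, 769 and 1007 CPM in Touchdome, 672, 621 and 693 CPM in HF libraries and 975, 836 and 1089 CPM in IFE. HF was again lowest, by less. The ratio of the mean sums of Touchdome over HF was 3.24 for mitosis and 1.37 for S phase genes, and that of HF over IFE was 0.325 and 0.685. Touchdome over IFE was 1.05 and 0.938, and on the TPM scale it was 1.11 and 1.05, so the S phase ratio turned direction with the scale. TPM carry no TMM factors, and genes in general were shifted on that scale. Their median log2 fold change in Touchdome over IFE was 0.13 on log2(TPM + 1), against 0.00 on counts scaled with TMM factors. The turn is therefore not particular to S phase genes. Divided within each library, the mitosis sum was 2.56, 2.24 and 1.87 times the S phase sum in Touchdome, 0.991, 0.997 and 0.821 times in HF and 2.18, 1.98 and 1.77 times in IFE. The samples are bulk RNA, so fewer cycling cells and less of these RNAs per cycling cell cannot be told apart.

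**Figure D2:**
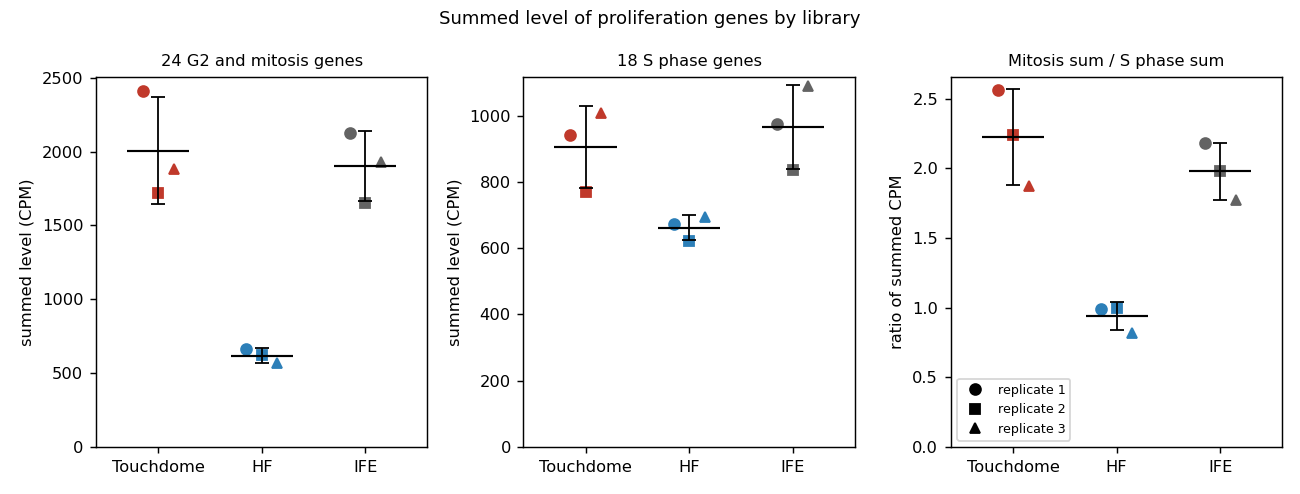
Summed level (CPM) of the 24 mitosis genes and of the 18 S phase genes, and the ratio of the first sum to the second, in each library; lines are means, bars SD, n = 3. HF libraries sit at 569 to 666 CPM for mitosis genes, below every Touchdome and IFE library, and at a ratio of 0.821 to 0.997.

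Touchdome was first compared with IFE, which shares its SCA1 gate and lacks the reporter. No proliferation gene passed the test in either direction, 0 of 18 S phase genes and 0 of 24 mitosis genes (edgeR, adjusted p under 0.05). Over all tested genes 1.22% were called higher and 0.0798% lower in Touchdome. At an unadjusted p under 0.05 there was 1 member, Gins2, and DESeq2 and limma on TPM called 0 members. With the replicate number as a block the members stayed at 0 called, while the calls over all genes were 282 higher and 67 lower, against 184 and 12 without it. The log2 fold changes of the members ran from -0.36 (E2f1) to 0.28 (Mybl2). Their median was -0.07 in S phase and 0.04 in mitosis genes, and 0.00 over all tested genes. The 95% interval of the fold change lay within 2-fold for all 42 members, from -0.89 to 1.00 on the log2 scale in S phase genes and from -0.63 to 0.96 in mitosis genes. Each interval stands alone, with no adjustment over the members, and a gene that misses the threshold is not shown to be equal.

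Gins2, a subunit of the GINS complex of the replicative helicase, stood at 57.6, 47.2 and 63.3 CPM in Touchdome and at 69.9, 69.4 and 69.9 CPM in IFE. The groups did not overlap, and the fold change was -0.32 ± 0.13 (SE, adjusted p = 0.412, edgeR). Cenpa, the histone H3 variant of centromeres, stood at 81.3, 63.4 and 68.8 CPM in Touchdome against 60.2, 59.9 and 61.6 CPM in IFE. It was the other member whose groups did not overlap, with a fold change of 0.23 ± 0.14 (adjusted p = 0.634, edgeR). Over all tested genes, 8.32% had every Touchdome library above and 6.27% every Touchdome library below every IFE library. Mki67, the gene of the Ki-67 proliferation antigen, spread widely within groups. Its levels were 612, 312 and 488 CPM in Touchdome and 532, 239 and 405 CPM in IFE, with replicate 1 highest and replicate 2 lowest in both. The labels do not say that same-numbered libraries are pairs, and they were taken as such from correlations in these data. Within each same-numbered pair Mki67 was higher in Touchdome, and with the replicate block its fold change was 0.27 (adjusted p = 0.750, edgeR). E2f1 was lower in Touchdome in every pair, at 16.0, 11.2 and 19.0 CPM in Touchdome and 19.7, 14.1 and 25.2 CPM in IFE, with -0.35 in the blocked fit (adjusted p = 0.438, edgeR). In CPM, the ratio of the mitosis sum to the S phase sum, given above, was likewise higher in Touchdome in every pair. On the TPM scale the replicate 3 pair turned, at 1.52 in Touchdome and 1.56 in IFE. The share of all genes with the same direction in every pair was not worked out, so no conclusion is drawn from these directions.

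Touchdome was then compared with HF. All 24 mitosis genes rose in Touchdome, and 7 of 18 S phase genes rose, with 0 lower in either list. Over all tested genes 11.8% were called higher and 12.8% lower. The log2 fold changes of the mitosis genes ran from 1.48 (Top2a) to 2.35 (Ube2c) with a median of 1.82, and their adjusted p from 4.10e-07 to 0.00702 (edgeR). Those of the S phase genes ran from -0.01 (Mcm4) to 1.12 (Mybl2) with a median of 0.49, so the highest S phase value lay below the lowest mitosis value. The median of all tested genes was 0.00. In 24 of 24 mitosis genes and 10 of 18 S phase genes every Touchdome library lay above every HF library, a pattern that 21.2% of all tested genes showed in this direction and 22.2% in the other.

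HF was compared with IFE in the same fit. All 24 mitosis genes fell in HF, by log2 fold changes of -2.40 (Kif23) to -1.25 (Mki67) with a median of -1.72, and 11 of 18 S phase genes fell, with 0 higher in either list. Over all tested genes 17.1% were called higher and 16.0% lower in HF. The adjusted p of the mitosis genes ran from 2.12e-07 to 0.0131 (edgeR). The S phase genes ran from -1.16 (Uhrf1) to 0.01 (Rrm2), with a median of -0.56. In 24 mitosis and 11 S phase genes every HF library lay below every IFE library, as did 23.1% of all tested genes, while 24.6% lay above. The comparisons share their HF libraries, or their Touchdome or IFE libraries, so their values are set side by side and are not independent of each other.

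**Figure D3:**
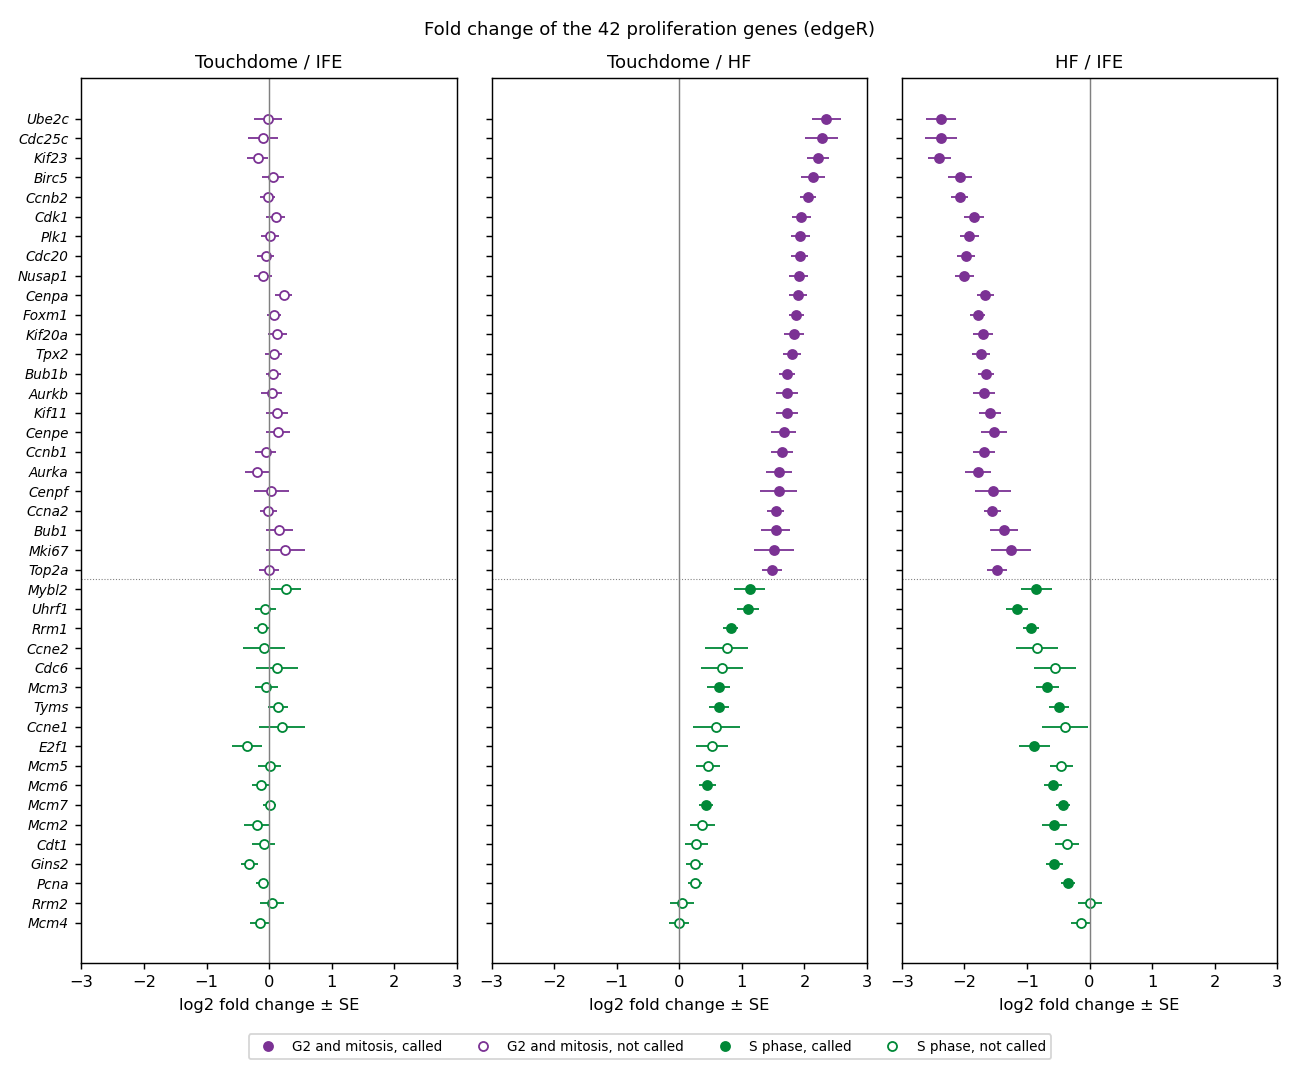
Log2 fold change (x axis, ± SE) of the 42 members in Touchdome over IFE, Touchdome over HF and HF over IFE, mitosis genes above the dotted line and S phase genes below; filled points passed the edgeR test at an adjusted p under 0.05. Mitosis genes sit at 1.48 to 2.35 in Touchdome over HF and at -2.40 to -1.25 in HF over IFE, and no point is filled in Touchdome over IFE.

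Among the mitotic cyclins, their kinase and their activators, 6 of 6 were higher in Touchdome than in HF and 6 of 6 lower in HF than in IFE. Ccnb2, whose promoter is shown above, stood at 44.1, 43.3 and 38.6 CPM in Touchdome, 11.1, 9.91 and 9.31 CPM in HF libraries and 44.0, 43.3 and 40.9 CPM in IFE. HF libraries lay far below both other groups, which overlapped. The log2 fold change was 2.05 ± 0.13 in Touchdome over HF (adjusted p = 4.40e-07) and -2.08 ± 0.13 in HF over IFE (adjusted p = 2.12e-07, edgeR). Foxm1, the transcription factor of the mitosis program, stood at 87.9, 96.3 and 80.1 CPM in Touchdome, 23.9, 22.7 and 25.6 CPM in HF libraries and 84.2, 77.0 and 87.7 CPM in IFE. Its fold change was 1.87 ± 0.12 in Touchdome over HF (adjusted p = 4.10e-07) and -1.79 ± 0.12 in HF over IFE (adjusted p = 3.39e-07, edgeR). The fold changes of Cdk1, the kinase that drives entry into mitosis, were 1.95 ± 0.16 and -1.85 ± 0.16. Cdc25c, the phosphatase that activates it, had 19.7, 16.2 and 11.5 CPM in Touchdome, 3.61, 2.11 and 3.87 CPM in HF libraries and 18.1, 15.8 and 16.9 CPM in IFE. The cyclin genes Ccnb1 (1.64 ± 0.18) and Ccna2 (1.54 ± 0.14) rose less in Touchdome over HF than Ccnb2 did by their point values, a difference that was not tested.

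The genes of the checkpoint and the anaphase promoting complex were called in 4 of 4 cases in both comparisons. Ube2c, the ubiquitin-conjugating enzyme of that complex, stood at 76.5, 61.3 and 44.8 CPM in Touchdome, 15.4, 10.1 and 9.90 CPM in HF libraries and 55.5, 75.5 and 54.6 CPM in IFE. Its fold change of 2.35 ± 0.24 in Touchdome over HF (adjusted p = 2.85e-05, edgeR) was the highest of the members in that comparison. Cdc20 stood at 98.5, 81.4 and 71.2 CPM in Touchdome, 24.1, 22.2 and 19.9 CPM in HF libraries and 86.3, 79.9 and 94.0 CPM in IFE. Every HF library again lay below the lowest of the others. The checkpoint kinase gene Bub1 had a fold change of 1.54 ± 0.23 in Touchdome over HF and -1.37 ± 0.22 in HF over IFE. Its relative Bub1b had 1.73 ± 0.13 and -1.66 ± 0.13.

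The mitotic kinase genes Plk1, Aurka and Aurkb, with Birc5, the survivin subunit of the chromosomal passenger complex, were called in both comparisons. Plk1, which acts at centrosomes, kinetochores and in cytokinesis, stood at 41.6, 32.4 and 37.4 CPM in Touchdome, 10.9, 9.27 and 8.91 CPM in HF libraries and 36.1, 40.7 and 34.1 CPM in IFE. Birc5 rose by 2.13 ± 0.19 in Touchdome over HF (adjusted p = 6.33e-06, edgeR). Aurkb, the kinase of the passenger complex, had 1.72 ± 0.18, and the spindle pole kinase Aurka 1.59 ± 0.21.

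The spindle and cytokinesis genes were called in 5 of 5 cases in both comparisons. Kif23, a kinesin of the central spindle, stood at 90.1, 66.6 and 69.3 CPM in Touchdome, 18.01, 11.8 and 18.4 CPM in HF libraries and 96.1, 83.6 and 77.5 CPM in IFE. Its fold change of -2.40 ± 0.18 in HF over IFE (adjusted p = 9.55e-07, edgeR) was the lowest of the members. In Touchdome over HF the microtubule bundling gene Nusap1 had 1.90 ± 0.15, the cytokinesis kinesin Kif20a 1.84 ± 0.16, the spindle assembly gene Tpx2 1.80 ± 0.14 and the bipolar spindle kinesin Kif11 1.71 ± 0.18.

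Of the centromere and kinetochore genes, Cenpa had a fold change of 1.90 ± 0.14 in Touchdome over HF, the kinesin Cenpe 1.67 ± 0.20 and Cenpf 1.59 ± 0.29. Cenpf spread widely within groups, at 149, 76.6 and 113 CPM in Touchdome, 49.4, 37.6 and 25.7 CPM in HF libraries and 128, 89.9 and 113 CPM in IFE. The chromosome structure genes had the smallest changes of the mitosis list in Touchdome over HF. Mki67 stood at 170, 184 and 140 CPM in HF, below all libraries of Touchdome and IFE given above, with a fold change of 1.52 ± 0.32 in Touchdome over HF (adjusted p = 0.00702) and -1.25 ± 0.31 in HF over IFE (adjusted p = 0.0131, edgeR). The second call was lost with no filter on low counts, with limma on TPM and without HF replicate 3. Top2a, the topoisomerase that untangles sister chromatids, stood at 329, 240 and 251 CPM in Touchdome, 102, 102 and 90.9 CPM in HF libraries and 316, 220 and 283 CPM in IFE. Its fold changes were 1.48 ± 0.16 and -1.48 ± 0.16. The mitosis members that lacked a CHR match had log2 fold changes in Touchdome over HF of 2.13 (Birc5), 1.90 (Nusap1), 1.67 (Cenpe) and 1.64 (Ccnb1).

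**Figure D4:**
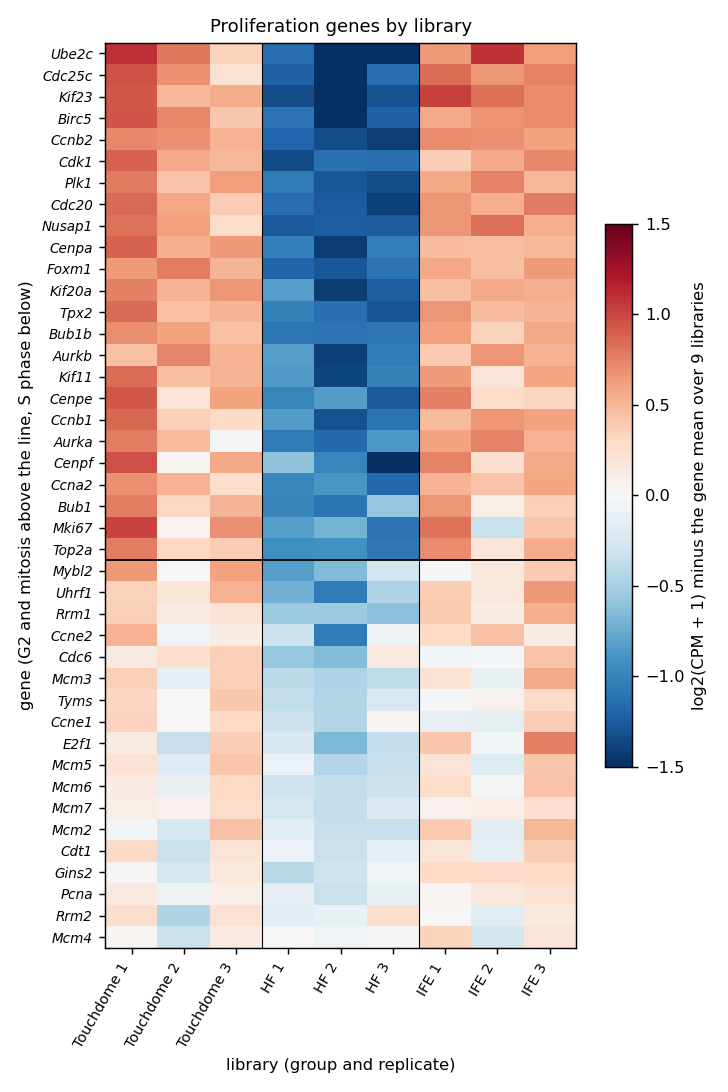
Level of each of the 42 members (rows) in each of the 9 libraries (columns, in the order Touchdome, HF and IFE), as log2(CPM + 1) minus the mean of the gene, with colours held at the ends of the scale. The 24 mitosis genes above the line are blue in the 3 HF libraries and red in nearly all others, and the 18 S phase genes below it show paler colours.

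In S phase genes, HF also stood lowest in most cases, with smaller differences. Among the G1/S cyclins and transcription factors, Mybl2, which encodes B-MYB, stood at 17.6, 10.9 and 17.0 CPM in Touchdome, 5.71, 6.53 and 8.72 CPM in HF libraries and 10.6, 12.4 and 14.7 CPM in IFE. It rose in Touchdome over HF by 1.12 ± 0.25 (adjusted p = 0.00479) and fell in HF, with -0.85 ± 0.25 over IFE (adjusted p = 0.0176, edgeR). The first call was lost with limma on TPM, and the second in 5 of 17 alternatives, limma on TPM and leaving out IFE replicate 3, HF replicate 1 or HF replicate 2. E2f1 stood at 12.1, 8.75 and 11.1 CPM in HF, beside the Touchdome and IFE values given above. Touchdome overlapped both other groups, and E2f1 was called in HF over IFE (-0.88 ± 0.25, adjusted p = 0.0150) and not in Touchdome over HF (0.52 ± 0.25, adjusted p = 0.157, edgeR). The first of these was lost with limma on TPM and without IFE replicate 3 or HF replicate 2. The second passed with the replicate block. The cyclin E genes Ccne1 and Ccne2, which drive entry into S phase with CDK2, were low, at 2.00 to 4.28 CPM and 2.11 to 8.25 CPM over all libraries, and neither passed in any comparison. In CPM every HF library lay below the others for Ccne2. Its fold changes were 0.75 ± 0.34 in Touchdome over HF (adjusted p = 0.131) and -0.84 ± 0.34 in HF over IFE (adjusted p = 0.0746, edgeR). The second passed without HF replicate 3.

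**Figure D5:**
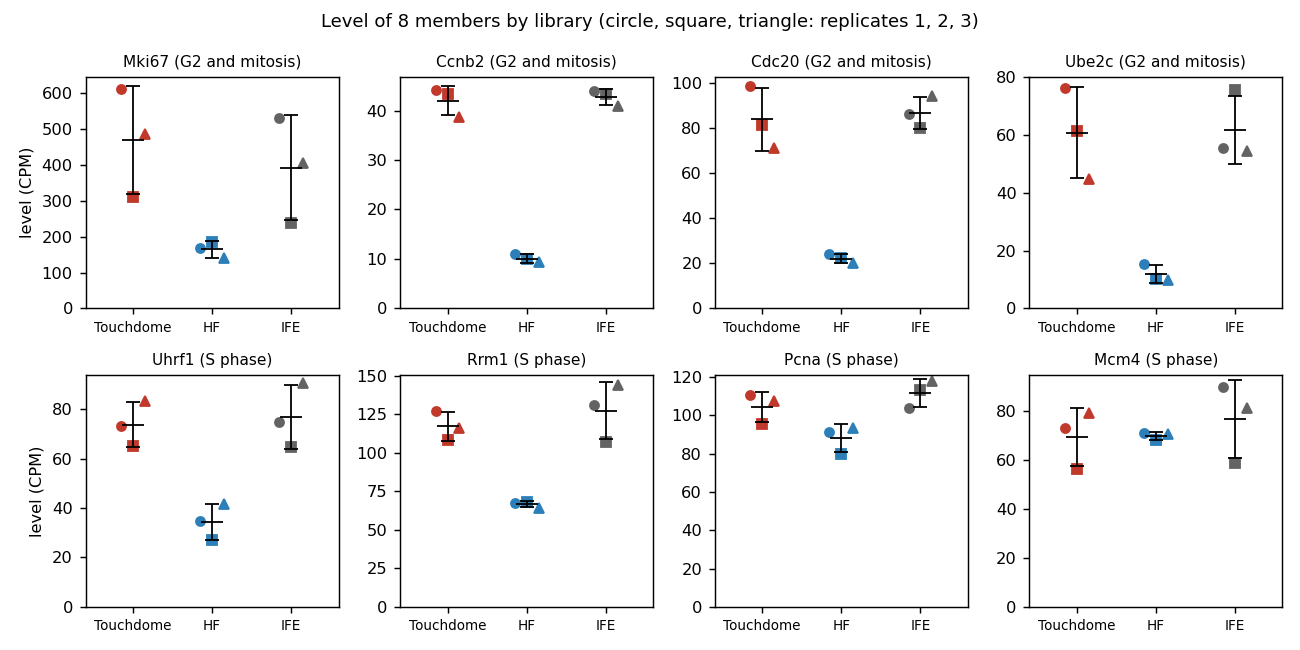
Level (CPM) of 4 mitosis genes (top row) and 4 S phase genes (bottom row) in each library; the horizontal mark and bars are mean and SD, n = 3, and each panel starts at 0. HF libraries lie apart and low for Mki67, Ccnb2, Cdc20, Ube2c, Uhrf1 and Rrm1, close below the others for Pcna, and within the range of the others for Mcm4.

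The 6 MCM genes encode the hexameric helicase that opens the DNA. Of these, 3 rose in Touchdome over HF, Mcm3 by 0.63 ± 0.18 (adjusted p = 0.0230), Mcm6 by 0.45 ± 0.14 (adjusted p = 0.0297) and Mcm7 by 0.43 ± 0.11 (adjusted p = 0.0132, edgeR), and 4 fell in HF over IFE. The calls of Mcm3 and Mcm6 in Touchdome over HF were each lost in 7 of 17 alternatives, including those without Touchdome replicate 1, Touchdome replicate 3 or any HF replicate, and that of Mcm7 in 2, without Touchdome replicate 3 or HF replicate 2. In HF over IFE the Mcm3 and Mcm7 calls were each lost in 3, with limma on TPM and without IFE replicate 3, and the Mcm6 call in 2, with limma on TPM. Mcm7 stood at 71.0, 69.5 and 80.5 CPM in Touchdome, 55.3, 51.8 and 57.1 CPM in HF libraries and 69.6, 71.1 and 79.1 CPM in IFE. By contrast Mcm4 stood at 72.8, 56.2 and 79.2 CPM in Touchdome, 71.0, 68.1 and 70.4 CPM in HF libraries and 89.8, 58.9 and 81.3 CPM in IFE, and all groups overlapped. Its fold change was -0.01 ± 0.16 in Touchdome over HF, with a 95% interval of -0.36 to 0.34, and -0.14 ± 0.16 in HF over IFE, with an interval of -0.49 to 0.21. Subunits of the same helicase thus had different point values, and the difference between them was not tested. Mcm5 (0.46 ± 0.19, adjusted p = 0.0978) and Mcm2 (0.37 ± 0.20, adjusted p = 0.223, edgeR) did not pass in Touchdome over HF. Mcm5 passed there in 3 of 17 alternatives, with the replicate block and without Touchdome replicate 2 or IFE replicate 2. It was not called in HF over IFE (-0.45 ± 0.19, adjusted p = 0.0836, edgeR) and passed there in 2, with the block and without IFE replicate 2. In HF over IFE Mcm2 was called at -0.56 ± 0.20 (adjusted p = 0.0480, edgeR), a call lost in 10 of 17 alternatives, including those without Touchdome replicate 1, IFE replicate 1, IFE replicate 3 or any HF replicate.

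Of the genes for origin licensing and firing, 0 of 3 passed in Touchdome over HF, where Cdc6 had 0.68 ± 0.34, Cdt1 0.27 ± 0.19 and Gins2 0.24 ± 0.13. CDC6 and CDT1 load the helicase on origins. In HF over IFE only Gins2 of these 3 passed, at -0.56 ± 0.13 (adjusted p = 0.00596, edgeR), with 42.3, 45.6 and 54.0 CPM in HF against the IFE values given above. That call was lost with limma on TPM.

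Uhrf1 showed the widest S phase difference between HF and IFE. It stood at 73.1, 65.3 and 83.3 CPM in Touchdome, 34.6, 26.98 and 41.5 CPM in HF libraries and 75.0, 64.9 and 90.6 CPM in IFE. It rose by 1.10 ± 0.17 in Touchdome over HF (adjusted p = 0.000461) and fell in HF, with -1.16 ± 0.17 over IFE (adjusted p = 0.000201, edgeR). Pcna, the sliding clamp of DNA polymerases, stood at 110.5, 95.4 and 108 CPM in Touchdome, 91.3, 80.0 and 93.2 CPM in HF libraries and 104, 113 and 118 CPM in IFE. Its groups did not overlap between Touchdome and HF, but the fold change of 0.24 ± 0.11 did not pass (adjusted p = 0.137), while -0.34 ± 0.11 in HF over IFE did (adjusted p = 0.0313, edgeR). That call was lost in 8 of 17 alternatives, among them leaving out IFE replicate 3, HF replicate 1 or HF replicate 2.

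The nucleotide synthesis genes were split. Rrm1, the large subunit of ribonucleotide reductase, stood at 127, 109 and 116 CPM in Touchdome, 67.1, 68.1 and 64.2 CPM in HF libraries and 131, 107 and 144 CPM in IFE. Its fold changes were 0.82 ± 0.12 in Touchdome over HF (adjusted p = 0.000366) and -0.94 ± 0.12 in HF over IFE (adjusted p = 8.04e-05, edgeR). Rrm2, the small subunit of the same enzyme, stood at 39.3, 23.7 and 38.3 CPM in Touchdome, 29.0, 30.2 and 39.1 CPM in HF libraries and 32.6, 28.6 and 36.6 CPM in IFE, with full overlap. Its fold changes were 0.05 ± 0.19, with a 95% interval of -0.38 to 0.47, and 0.01 ± 0.19, with an interval of -0.41 to 0.42. Tyms, which makes thymidylate, rose by 0.63 ± 0.16 in Touchdome over HF (adjusted p = 0.0111) and fell in HF, with -0.49 ± 0.16 over IFE (adjusted p = 0.0303, edgeR). The first call was lost with limma on TPM, and the second in 6 of 17 alternatives, among them leaving out IFE replicate 3, HF replicate 1 or HF replicate 2.

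By mean CPM, HF was the lowest group in 40 of 42 members. The order was IFE, Touchdome, HF from high to low in 20 members and Touchdome, IFE, HF in 20, orders found in 27.9% and 14.7% of all tested genes. No member passed the test between Touchdome and IFE, so the order of these neighbours was not resolved. Mcm4 ran IFE, HF, Touchdome and Rrm2 ran Touchdome, HF, IFE. TPM correct for length, which matters between genes, and carry no TMM factors. On log2(TPM + 1) the median log2 fold change of genes in general was 0.19 in HF over IFE and -0.06 in Touchdome over HF. The part of this shift in the orders below was not tested. On the TPM scale Ccne1 averaged 3.39 in Touchdome, 4.49 in HF and 2.81 in IFE, so HF was highest there and not lowest. HF was also highest on that scale for Mcm4, at 33.3, 35.2 and 33.8 TPM in Touchdome, HF and IFE, and for Rrm2, at 28.6, 30.9 and 25.7 TPM. Ccne2 averaged 7.11, 6.57 and 6.16 TPM. Compared between genes on that scale, Pcna (136 TPM), Ube2c (132 TPM), Top2a (126 TPM) and Cdk1 (116 TPM) were the most abundant members in Touchdome, and Cdc6 (3.09 TPM) and Ccne1 the least. In HF, Pcna averaged 124 TPM while Ube2c averaged 27.2 TPM, against 132 and 120 TPM in IFE.

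Further genes of the same processes, listed by function, were read from the same fit. Of 74 other mitosis genes, 0 were called between Touchdome and IFE. In Touchdome over HF 67 were higher and 2 lower (median 1.59), and in HF over IFE 67 were lower and 1 higher (median -1.52). The called genes with the smallest p were Racgap1 (1.84 ± 0.12 in Touchdome over HF), a cytokinesis partner of KIF23, Ckap2l (2.04 ± 0.13), a spindle protein, and Prc1 (2.00 ± 0.14), which bundles midzone microtubules. Fam83d, which recruits casein kinase 1 to the spindle, ran against the rest. It stood at 18.03, 17.9 and 21.8 CPM in Touchdome, 57.8, 51.0 and 76.8 CPM in HF libraries and 18.6, 18.6 and 18.4 CPM in IFE. HF was highest without overlap, and the fold change was -1.69 ± 0.16 in Touchdome over HF (adjusted p = 1.07e-05) and 1.74 ± 0.16 in HF over IFE (adjusted p = 4.68e-06, edgeR). The other gene of that list lower in Touchdome over HF was Cdca7 (-0.37 ± 0.12, adjusted p = 0.0420, edgeR). Its place in a list of mitosis genes was not checked. Kif18a, Cenpl, Pttg1, Cks1b and Cdc25b did not pass there.

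Of 48 other replication genes, 0 were called between Touchdome and IFE, 16 were higher and 0 lower in Touchdome over HF (median 0.42), and 17 were lower and 0 higher in HF over IFE (median -0.41). Among those with the smallest p were the thymidine kinase gene Tk1 (1.10 ± 0.16 in Touchdome over HF) and the flap endonuclease gene Fen1 (0.81 ± 0.14). Of 16 tested genes of the E2F, RB and DREAM factors that control both programs, 6 were higher and 0 lower in Touchdome over HF and 7 were lower and 0 higher in HF over IFE, with 0 called between Touchdome and IFE. E2f8 (1.65 ± 0.19 in Touchdome over HF) and E2f7 (1.59 ± 0.26), which are repressors, and E2f2 (1.29 ± 0.19), an activator, had the smallest p.

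Other cell states differed between the groups along with these genes. The summed level of 10 suprabasal keratinocyte markers was 7124 to 9512 CPM in Touchdome, 1979 to 2261 CPM in HF libraries and 5108 to 6653 CPM in IFE, and that of 10 basal markers 44491 to 49143, 34587 to 36968 and 58100 to 61995 CPM. In Touchdome over IFE 0 of 10 members were called in either list, with 10 suprabasal fold changes positive and 9 of 10 basal ones negative. In the comparisons with HF the members of these lists did not all move one way. Of the suprabasal markers 5 were called higher and 0 lower in Touchdome over HF, and 3 higher and 5 lower in HF over IFE. Of the basal markers 4 were called higher and 1 lower in Touchdome over HF, and 0 higher and 3 lower in HF over IFE. The sum of 10 bulge and hair germ markers was 986 to 1977, 6758 to 7709 and 537 to 691 CPM, with 10 of 10 lower in Touchdome than in HF and 10 of 10 higher in HF than in IFE. Touchdome replicate 3 gave the top of the Touchdome range, at 1977 CPM against 1123 and 986 CPM in replicates 1 and 2. The same library was the highest Touchdome library for the melanocyte and fibroblast markers below, and replicate 1 was highest for the Merkel cell and T cell markers. The summed Langerhans cell markers overlapped between all groups, at 166 to 357, 69.6 to 461 and 130 to 280.1 CPM, and 0 of 8 were called in any comparison. The summed level of 8 Merkel cell markers was 1.52 to 10.6 CPM in Touchdome, 3.37 to 3.997 CPM in HF and 0.114 to 0.316 CPM in IFE. Of the 2 tested, 1 was higher in Touchdome than in IFE and 2 were higher in HF than in IFE, while the defining markers Atoh1, Sox2 and Chga were at 0 in all 9 libraries. Melanocyte markers stood at 16.3 to 53.4 CPM in Touchdome, 102 to 132 CPM in HF and 10.6 to 15.3 CPM in IFE, with 1 of 6 tested lower in Touchdome than in HF and 5 of 6 higher in HF than in IFE. Fibroblast markers stood at 45.6 to 90.8 CPM in Touchdome, 62.2 to 87.1 CPM in HF and 0.844 to 2.95 CPM in IFE, with 2 of 5 tested higher in Touchdome and 3 of 5 higher in HF than in IFE, and 1 higher and 1 lower in Touchdome over HF. T cell markers stood at 7.87 to 11.2, 1.51 to 8.64 and 6.51 to 9.07 CPM, and hair matrix and shaft markers at 15.6 to 19.1, 43.5 to 55.6 and 7.84 to 10.6 CPM, in the same order of groups. The part of these states in the differences of the proliferation genes was not tested.

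Some member values may rest on divided reads. Deposited counts were not exactly whole in 1 or more libraries for 10 of the 42 members, Ccne2, Mybl2, Mcm7, Gins2, Pcna, Ccna2, Ccnb1, Cdc25c, Kif20a and Nusap1. For Cdc25c and Nusap1 this held in 1 library each. It may mean that reads shared with other genes were divided there, which was not checked, and these members are less certain. The S phase calls depended on the method and on single libraries. With limma on TPM, which changes the unit, the test and the filter together, they were 3 in Touchdome over HF and 2 in HF over IFE. The count in Touchdome over HF was 4 without Touchdome replicate 3, which stood apart on the first component, and 4 without HF replicate 2. The count in HF over IFE was 7 without HF replicate 1, 6 without HF replicate 2 and 4 without IFE replicate 3. Without IFE replicate 2, which stood apart on the second component, the counts were 8 in Touchdome over HF and 12 in HF over IFE. The mitosis count in Touchdome over HF was 24 in all 17 alternatives, Touchdome replicate 3 left out included.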

How the data were processed

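Per the labels' protocols, 50 ng of RNA went into each poly(A)-selected library, with paired reads of 150 nt. The deposited table gives, for each of 9 libraries, an expected count and a TPM value per Ensembl gene. The submitters' processing notes name mm39 as build and RSEM 1.3.3, STAR 2.7.9a and DESeq2 1.38.2 as tools. What each did, the annotation release and strandedness are not given in these sources. The authors deposited expected counts that are not scaled between libraries and were exactly whole, with no tolerance, in 92.5% to 94.6% of rows. The TPM values deposited by the authors are scaled for length and carry no depth. With strandedness unknown, overlapping and antisense genes are uncertain. Symbols matched 52081 of 55357 identifiers, and identifiers with none held 0.673% to 2.13% of counts.

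Counts were rounded for the test. The filter was filterByExpr (edgeR 4.0.16, minimum count 10, minimum total 15), and the kept genes were scaled by TMM and tested with the robust quasi-likelihood test in R 4.3.3, with all 9 libraries in 1 fit. Benjamini-Hochberg adjustment ran over 15046 genes, with a threshold of 0.05. Fold changes are log2 values ± SE. The SE was worked out from the fold change and the F statistic of its test, and the 95% intervals from that SE. Both are approximate. A count of 0 allows up to 0.114 to 0.316 CPM (3 counts of the scaled total), and this limit covers counting error only. The 42 members, the named genes (all members, the sort genes and the called genes of each further list with the smallest p, up to 3 per direction) and the lists were chosen with earlier results of these data known. A result for 1 gene named by this rule is not reported here. Uncalled mitosis genes and Merkel cell genes at 0 were named after their values were seen. Summed levels and motif shares are descriptions with no test. Library pairs of a group differed beyond sampling noise (chi-square per degree of freedom 16.8 to 73.6). The highest values, 73.6 and 69.5, were those of IFE replicate 2 with IFE replicates 1 and 3, and all other pairs lay at 16.8 to 26.0.

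Deviations from the group mean correlated between Touchdome and IFE libraries of the same replicate number (r across genes 0.146, 0.173 and 0.203), so that these numbers were taken to pair them; between HF and the others they did not (-0.026 to 0.070). Alternatives were RLE size factors, DESeq2 1.42.0, no filter, a replicate block, 2 groups only, limma 3.58.1 on log2(TPM + 1) and log2(TPM + 0.1) (TPM of at least 1), leaving out each library, summed TPM, sums without the highest member and a shorter promoter window. Library totals with no scaling factors were added after seeing the data. The test was tested on simulated data for Touchdome against IFE with 14727 genes, and recovered 55.2% of 96 genes changed by 1 and 81.6% of 98 changed by 2 on the log2 scale, with 6.34% of calls false.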

Additional observations from a re-analysis of the deposited data

How the results depend on the processing

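Over 17 alternatives, 0 member fold changes reversed among calls, and 42 of 42 members in Touchdome over IFE, 35 in Touchdome over HF and 29 in HF over IFE stayed on their side of the threshold throughout, while 5 and 11 members lost a call and 2 and 2 gained one in Touchdome over HF and in HF over IFE. Mitosis counts in HF over IFE were 22 to 24. S phase calls in Touchdome over HF were 7, against 3 with limma on TPM with either pseudocount, and 4 to 8 when 1 library was left out. In HF over IFE they were 11, against 2 with limma on TPM with either pseudocount, and 4 to 12 when 1 library was left out. The cause was not tested. With the replicate block, whose numbers do not pair HF libraries with the others, S phase calls were 9 and 12 and mitosis calls 24 and 24 in these comparisons. The ratio of summed S phase levels of HF over IFE was 0.685 in CPM and 0.801 in TPM. Calls over all genes moved as well, most in Touchdome over IFE. In Touchdome over IFE the 184 higher were 440 with DESeq2, 282 with the replicate block, 100.0 with only the 2 groups, 68 and 120 with limma on TPM (pseudocounts 1 and 0.1), and 105 to 216 with 1 library left out. The 12 lower were 7 with library totals, 73 with DESeq2, 49 with no filter, 67 with the replicate block, 5 with only the 2 groups, 0 with limma on TPM, and 4 to 29 with 1 library left out. In HF over IFE the 2401 lower were 1194 and 1216 with limma on TPM. Library totals moved the median log2 fold change of all genes by 0.11 in Touchdome over IFE and in HF over IFE. Limma on TPM, with no TMM factors and its own filter, moved the median of its genes further. With pseudocounts 1 and 0.1 the shift was 0.13 and 0.14 in Touchdome over IFE and 0.19 and 0.20 in HF over IFE. In Touchdome over HF it was -0.06 with either. The part of these shifts in the S phase calls was not tested. In the window from 150 bases before the start, CHR was found in 77.8% of mitosis, 5.88% of S phase and 12% of all promoters, and E2F in 5.56%, 35.3% and 1.66%.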
